A study of Homo sapiens with 40 samples.

Results

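A total of 1101 H3K27ac peaks, of 51489 in the differential table, were under 10000 bp wide and overlapped both a window of 2 kb on either side of a protein-coding start site (GENCODE 44) and an enhancer listed for senescent or for non-senescent cells. These peaks are called the overlap peaks. Both criteria rest on measured H3K27ac, since the peaks and the enhancer lists were selected from the H3K27ac signal of the same cells, so the H3K27ac changes of the overlap peaks are given as a description. Their label, peaks that join a promoter to a listed enhancer, held for a minority of them. Only 256 reached the main start of a gene (the start of its canonical transcript), and in 123 of those the listed enhancer lay outside the start windows, beside the promoter. The other 845 reached only an alternative start, that of another protein-coding transcript of the gene. In 804 of these a listed enhancer itself overlapped a start window by at least 1 bp, which is what is meant below by an enhancer in the window.

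The cells were EndoC-βH3, a human pancreatic beta-like line derived from fetal pancreas and immortalized with hTERT and with SV40 large T antigen, which blocks p53 and Rb and can be excised by a tamoxifen-inducible Cre (CreER). Senescent cells had received 4-OHT for 3 weeks, which removes these transgenes, and the controls were untreated, dividing cells of the same line, labelled wild type. All groups are one cell line, so replicates are libraries and not donors, and excision of the oncogenes, exposure to 4-OHT and senescence cannot be told apart. H3K27ac and CTCF were each immunoprecipitated in 3 senescent and 3 non-senescent libraries, and H3K4me1 and Rb in 2 and 2, each with its own input. The tables hold 1 mean count, 1 fold change, its standard error and its p-values per peak, and no value per library, so the spread of single libraries and their depth are unknown here. All 14 beta-cell marker genes examined had an H3K27ac peak at a start, at a median percentile of 99.8 among all peaks by mean count, but MAFA stood only at the 28.7th percentile and the peak at PCSK1, a proinsulin convertase, was lost (log2 fold change -1.41). Of 19 markers of other pancreatic, stromal, endothelial and blood cells, 5 had one: SST, GHRL and KRT19, whose peaks were lost (-0.86, -1.58 and -0.74), and CPA1 and CD68, not called and at the percentiles 94.8 and 99.1. None of these marker genes had an overlap peak.

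H3K27ac, acetylation of lysine 27 on histone H3, marks nucleosomes at promoters and enhancers that are in use. Promoters lie at transcription start sites and are often rich in CpG dinucleotides, while enhancers lie elsewhere, are mostly CpG-poor and act on a promoter over a distance. Many genes have several start sites, and a region inside a gene can carry a start of a minor transcript and also work as an enhancer. Per the study's methods, enhancers were loci where H3K4me1, a mark of enhancers, overlapped H3K27ac outside promoters, with promoters taken within 2 kb of start sites from the UCSC browser. The lists of both states together held 27962 entries, and an enhancer listed in both states was counted in each. Of these entries, 1690 overlapped a window of any GENCODE 44 start and 178 a window of a main start.

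The 150 bases just before the annotated start held fewer CpG dinucleotides at most of the alternative starts compared than at their main starts. They are printed 5′ to 3′ on the gene's strand, from hg38, with CpG dinucleotides in capitals, for the gained and the lost overlap peaks that ranked first by adjusted p-value among those with a start inside the peak, an H3K27ac peak at the main start and no annotated exon of a canonical transcript or UTR in either stretch.
RNPEPL1 alternative start, chr2:240575352-240575501, plus strand: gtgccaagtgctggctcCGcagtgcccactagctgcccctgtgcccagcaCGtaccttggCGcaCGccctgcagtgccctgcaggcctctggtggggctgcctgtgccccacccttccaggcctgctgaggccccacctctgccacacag
RNPEPL1 main start, chr2:240568334-240568483, plus strand: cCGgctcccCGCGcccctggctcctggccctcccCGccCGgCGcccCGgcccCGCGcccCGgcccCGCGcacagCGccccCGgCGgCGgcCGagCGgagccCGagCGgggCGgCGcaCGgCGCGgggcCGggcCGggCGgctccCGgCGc
GPC1 alternative start, chr2:240452661-240452810, plus strand: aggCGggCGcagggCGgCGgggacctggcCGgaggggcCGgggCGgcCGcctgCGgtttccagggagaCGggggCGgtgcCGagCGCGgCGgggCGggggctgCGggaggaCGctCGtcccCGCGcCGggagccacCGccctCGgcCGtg
GPC1 main start, chr2:240435513-240435662, plus strand: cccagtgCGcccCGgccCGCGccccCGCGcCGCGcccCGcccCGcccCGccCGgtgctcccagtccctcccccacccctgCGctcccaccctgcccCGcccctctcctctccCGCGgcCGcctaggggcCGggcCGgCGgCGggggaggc
MLLT3 alternative start, chr9:20382488-20382637, minus strand: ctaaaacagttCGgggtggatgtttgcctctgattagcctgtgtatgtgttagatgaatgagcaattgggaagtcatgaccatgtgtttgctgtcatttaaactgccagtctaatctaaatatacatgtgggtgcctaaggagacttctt
MLLT3 main start, chr9:20622500-20622649, minus strand: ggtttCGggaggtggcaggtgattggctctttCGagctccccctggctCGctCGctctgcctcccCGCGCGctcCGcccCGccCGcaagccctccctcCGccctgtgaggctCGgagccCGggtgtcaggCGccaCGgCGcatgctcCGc
ZNF385B alternative start, chr2:179562589-179562738, minus strand: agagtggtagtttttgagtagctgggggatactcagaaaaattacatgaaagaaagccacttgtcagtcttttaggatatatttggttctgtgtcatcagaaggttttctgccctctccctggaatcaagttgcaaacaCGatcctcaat
ZNF385B main start, chr2:179861613-179861762, minus strand: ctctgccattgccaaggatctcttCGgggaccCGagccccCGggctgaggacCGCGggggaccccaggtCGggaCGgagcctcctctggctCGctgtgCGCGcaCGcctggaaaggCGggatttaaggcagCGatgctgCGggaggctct

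The alternative start of MLLT3, a transcription elongation factor, had 1 CpG in these 150 bases and its main start had 17. The corresponding numbers were 1 and 14 for ZNF385B, a zinc finger protein, and 4 and 30 for RNPEPL1, an aminopeptidase-like protein. GPC1, which encodes a heparan sulfate proteoglycan of the cell surface, was an exception, with 25 CpGs at the alternative start and 21 at the main start. Over the 423 distinct pairs with a start inside the overlap peak and an H3K27ac peak at the main start, the median was 3 CpGs (interquartile range 1 to 6) at the alternative start and 17 (13 to 22) at the main start. The main start had more in 367 pairs, the alternative start in 48, and 8 were equal. Listed enhancers were taken outside promoters, and each main start here carried an H3K27ac peak. The part of this selection in the difference was not tested. The starts are first bases of annotated transcripts, and no transcript was set aside for an incomplete 5′ end. Of the alternative starts, 325 fell in an exon of the canonical transcript, as at RNPEPL1, so some may be exon edges and not promoters. Whether transcription begins at them was not tested.

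The overlap peaks were wider than the typical H3K27ac peak. Their median width was 3425 bp, against 1742 bp over all peaks, and they ran from 542 to 9975 bp. The median mean count was 392 normalized reads per peak, between 427 in promoter peaks without a listed enhancer and 233 in listed enhancers away from promoters, and the median count per kb was 106, between 154 and 88.7. They lay at starts of 1020 of 19676 protein-coding genes (5.18%), and 1068 of them reached the starts of a single gene. A start lay inside the peak in 713, and in the other 388 the peak reached only the flank of a start. Of the alternative starts nearest to the peak centre, 703 lay downstream of the gene's main start, at a median of 30.6 kb (interquartile range 12.6 to 84.7 kb), and 142 lay upstream of it, at a median of 19.4 kb. Within the gene, 373 of these starts fell in an intron and 325 in an exon of the canonical transcript, and 147 fell outside that transcript. Only 25 lay within 2 kb of the main start, as at EGR4, whose alternative start was 153 bp from the main one and whose peak reached the window of the first but not of the second.

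In CpG ratio the alternative-start peaks were close to listed enhancers away from promoters, but in GC content they lay between these and promoters. Their median ratio of observed to expected CpG was 0.274, against 0.216 in those enhancers and 0.618 in promoter peaks without a listed enhancer. The median GC content was 47.3%, against 42.9% and 52.9%. Main-start peaks with the enhancer in the window had a CpG ratio of 0.535 and those with the enhancer beside had 0.439. The last were also the widest, at a median of 7048 bp, and a median of 36.2% of their length was listed as enhancer, against 94.8% of alternative-start peaks. In these 123 peaks the nearest listed base lay downstream of the main start in 90 and upstream in 33, at a median of 2734 bp (range 2019 to 6443 bp).

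**Figure D1:**
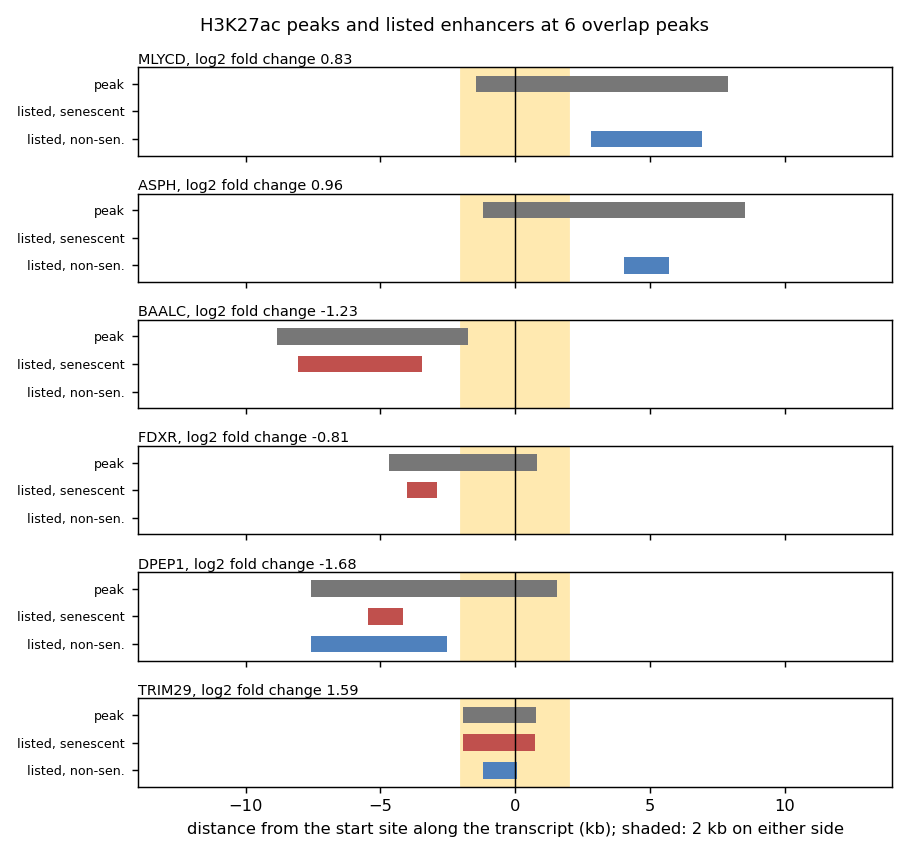
Positions of the H3K27ac peak (grey), enhancers listed for senescent cells (red) and enhancers listed for non-senescent cells (blue) at 6 overlap peaks, by distance in kb from the main start (the alternative start for TRIM29), downstream to the right, with the window of 2 kb on either side shaded. At MLYCD and ASPH the gained peak spans the start and an enhancer listed for non-senescent cells alone, at BAALC and FDXR the lost peak holds an enhancer listed for senescent cells alone, and at TRIM29 the listed enhancers lie within the start window.

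Among the overlap peaks, 147 gained and 147 lost H3K27ac in senescent cells at the study's thresholds (adjusted p under 0.05 and fold change above 1.5), or 13.4% each, and 807 were not called. Over all peaks the shares were 9.47% gained and 13.1% lost, and nothing is read from the difference because H3K27ac chose the peaks. The median log2 fold change was 0.045 (interquartile range -0.31 to 0.34), against 0.0075 over all peaks. Promoter peaks without a listed enhancer, of the same width limit, had 3.74% gained and 9.81% lost (n = 12437), and listed enhancers away from promoters had 14.4% and 20.1% (n = 15534). Alternative-start peaks had 14.6% gained and 14.7% lost, main-start peaks with the enhancer in the window 6.77% and 9.02%, and main-start peaks with the enhancer beside 12.2% and 8.94%. Calls depend on the mean count: with all peaks divided into 4 equal groups by mean count, in the highest group 17.2% of 541 overlap peaks and 13.1% of all peaks were called, in the next group 32.2% of 425 and 30.4%, and in the one below 47.4% of 135 and 33.3%.

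The state in which the enhancer was listed went with the direction of change at alternative starts and against it at main starts with the enhancer beside. At alternative starts, peaks listed for senescent cells alone had a median log2 fold change of 0.53 (n = 123, 55 gained and 6 lost), and those listed for non-senescent cells alone had -0.46 (n = 156, 6 gained and 63 lost). These medians resembled those of listed enhancers away from promoters, at 0.55 and -0.56. At main starts with the enhancer beside, the order was the opposite. Peaks listed for senescent cells alone had a median of -0.13 (n = 33, 3 gained and 6 lost), with 21 below 0, and peaks listed for non-senescent cells alone had 0.15 (n = 79, 12 gained and 4 lost), with 59 above 0. Main-start peaks with the enhancer in the window followed neither order: the medians were 0.035 for senescent cells alone (n = 14, 1 gained and 1 lost) and 0.072 for non-senescent cells alone (n = 42, 3 gained and 9 lost). Lists and fold changes come from the same libraries, so list and direction are not independent, and most of these peaks were not called. The lists also leave out promoters, so a region at a promoter can be missing from a list whatever its H3K27ac. The contrast, and the part of these selections in either order, was not tested. A listed enhancer in these peaks covers a part of the peak, and the deposited fold change is for the whole peak.

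**Figure D2:**
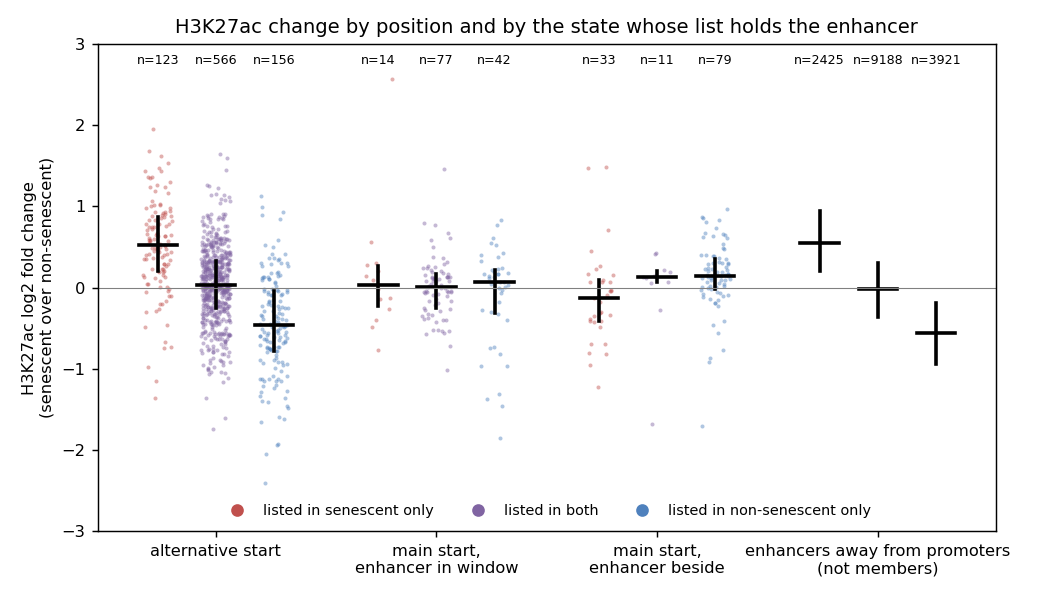
H3K27ac log2 fold change (y axis) of each overlap peak (points) by position and by the list that holds its enhancer, with median (horizontal bar) and interquartile range (vertical bar), beside listed enhancers away from promoters as medians and ranges alone. The medians run from 0.53 to -0.46 at alternative starts and from -0.13 to 0.15 at main starts with the enhancer beside.

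The 12 main-start peaks that gained H3K27ac beside an enhancer listed for non-senescent cells alone are given with what each named gene is known to do. MLYCD, malonyl-CoA decarboxylase of fatty acid metabolism, had a log2 fold change of 0.83 ± 0.058 (standard error) at a mean count of 3376 (chr16:83897670-83907015, adjusted p = 1.55e-44). ADRA2A, the adrenergic receptor through which adrenaline restrains insulin secretion, had 0.86 ± 0.090 over its single-exon gene (chr10:111075906-111081645, adjusted p = 6.95e-20). ASPH, an aspartyl hydroxylase, had 0.96 ± 0.074, and NRBF2, a subunit of the autophagy lipid kinase, had 0.81 ± 0.080. MAP3K14, the kinase NIK of non-canonical NF-kappaB signalling, had 0.62 ± 0.067, and ARRDC4, an arrestin-domain protein, had 0.65 ± 0.072. The remaining ones were PPP1R14D, ZBTB7A, PRRG2, HSPBP1, LMTK2 and ZNF33B, with log2 fold changes from 0.61 to 0.87. The peak at ZNF33B reached only the flank of the start without covering it.

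Conversely, 6 main-start peaks lost H3K27ac beside an enhancer listed for senescent cells alone. BAALC, a membrane-associated protein, fell most of these (-1.23 ± 0.077, chr8:103131887-103138990, adjusted p = 2.08e-54), in a peak that ended within 2 kb upstream of the start without covering it. FDXR, the mitochondrial ferredoxin reductase and a p53 target gene, had -0.81 ± 0.092 (chr17:74872186-74877667). CSRP1, a LIM-domain protein, had -0.80 ± 0.095, and POLR2E, a subunit shared by the RNA polymerases, had -0.95 ± 0.15. AKAP6, an anchoring protein for protein kinase A, had -0.69 ± 0.12, and PF4V1, a platelet factor 4 variant, had -0.69 ± 0.13. The peaks at POLR2E, AKAP6 and PF4V1, like that at BAALC, reached only the flank of the start, so their values are not those of the start itself. These genes were singled out after their values were seen.

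Most of the 12 gained peaks that ranked first by adjusted p-value lay at alternative starts inside genes. First was a peak of 6819 bp within SPEG, a striated-muscle kinase gene, near the start of the overlapping gene model ENSG00000286143 (chr2:219483055-219489873), at 1.46 ± 0.084 and a mean count of 1105 (adjusted p = 4.05e-64). PI4KB, a phosphatidylinositol 4-kinase of the Golgi, followed at 1.15 ± 0.071 (chr1:151288539-151298219, over exons, 32.9 kb downstream of its main start), in a peak that also reached starts of ZNF687. RNPEPL1 had the largest value of the 12, 1.62 ± 0.12 (chr2:240574301-240578352), at a mean count of 378. TRIM29, a tripartite motif protein, had 1.59 ± 0.12 in an intron, ARHGAP25, a GTPase-activating protein, had 1.45 ± 0.13, and EGR4, an immediate-early zinc finger factor, had 1.25 ± 0.093. SYNE1, the nuclear envelope protein nesprin-1, had 1.13 ± 0.10 in an intron 469 kb from its main start. SULF1, which removes sulfates from heparan sulfate, CDIP1, a proapoptotic p53 target, and PRKCZ, the atypical protein kinase C zeta, had 0.91 ± 0.076, 0.77 ± 0.070 and 0.76 ± 0.069.

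The 12 lost peaks that ranked first were led by MEGF11, a cell-surface protein with EGF-like repeats, at -1.60 ± 0.084 in an intron 283 kb from its main start (chr15:65968861-65973364, adjusted p = 7.52e-77). DPEP1, a membrane dipeptidase, was, with BAALC, one of 2 main-start peaks in this group, at -1.68 ± 0.089 (chr16:89606051-89615179, adjusted p = 5.35e-75). The largest falls were those of PROSER2 (-1.93 ± 0.18) and of the peak at an alternative start of ADA, adenosine deaminase (-1.93 ± 0.14), which itself lay in the neighbouring gene PKIG. KCNMB2, a regulatory subunit of calcium-activated potassium channels, had -1.36 ± 0.093 in an intron 271 kb from its main start. GNAT1, the rod photoreceptor G protein, had -1.75 ± 0.13 and SLC38A3, a glutamine transporter, had -0.86 ± 0.079, in peaks on the same stretch of chromosome 3. CNTD1, a cyclin-like meiotic protein, MLLT3 and NDUFAF6, a complex I assembly factor, had -1.16 ± 0.10, -1.04 ± 0.096 and -0.90 ± 0.071, and PMFBP1, a sperm protein, had -0.71 ± 0.066 at a mean count of 2667.

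**Figure D3:**
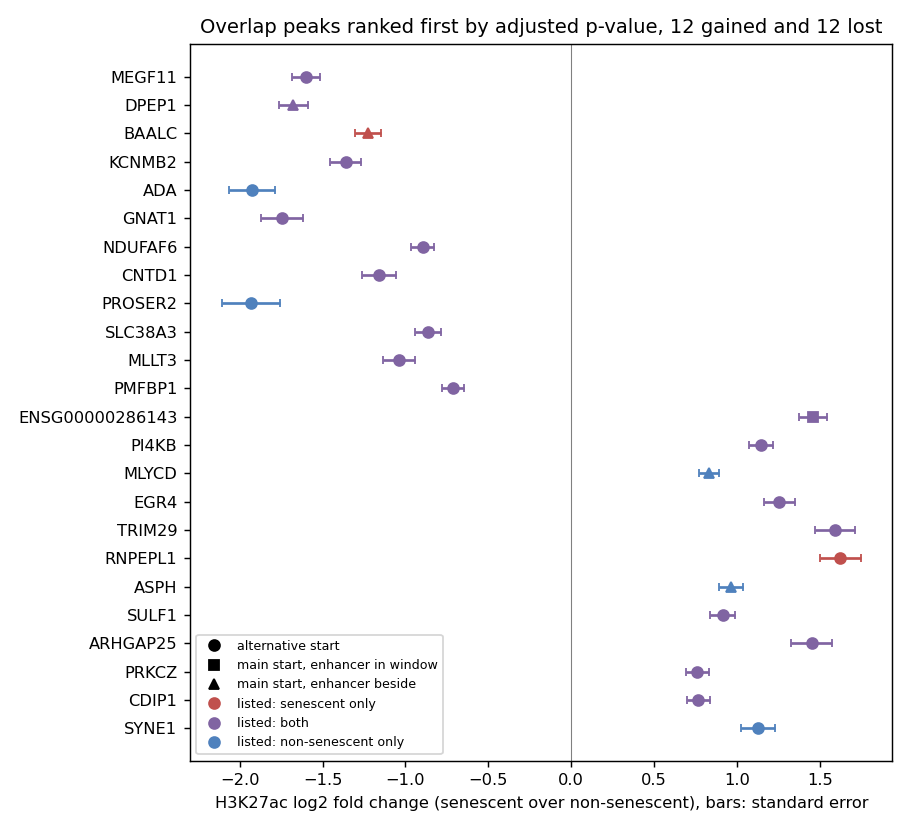
H3K27ac log2 fold change with its standard error (x axis) of the 12 lost and 12 gained overlap peaks that ranked first by adjusted p-value. Marker shape gives the position and colour the list that holds the enhancer; values run from -1.93 at ADA and PROSER2 to 1.62 at RNPEPL1.

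Peaks at alternative starts were set beside the H3K27ac peak at the main start of the same gene, which was present for 709 of the 845. The comparison did not require these main-start peaks to meet the rule, but some can be overlap peaks themselves. MAP3K14 and PCLO, for example, have an overlap peak at the main start and another at an alternative start. Both values of a pair come from the same libraries. Of 105 gained alternative-start peaks, the main start had gained in 12, had lost in 3 and was not called in 90. Of 91 lost alternative-start peaks, it had lost in 21, had gained in 2 and was not called in 68. Where the alternative-start peak was not called (513), the main start had gained in 13 and had lost in 26. Several overlap peaks can share 1 main start, and the 709 pairs belong to 627 genes. The main-start peaks had a narrower interquartile range, -0.16 to 0.22, than the alternative-start peaks, -0.29 to 0.38, at median mean counts of 658 and 363 and median standard errors of 0.0930 and 0.117.

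At PI4KB the log2 fold change was 1.15 ± 0.071 at the alternative and 0.12 ± 0.069 at the main start, and at KCNMB2 it was -1.36 ± 0.093 and 0.17 ± 0.14. In both genes the values differed by several times their standard errors, whereas at SLC38A3 both peaks were lost, at -0.86 ± 0.079 and -1.15 ± 0.13. In 5 genes the calls were opposite. RACGAP1, which is required for cytokinesis, gained at the alternative start 8.41 kb downstream (0.72 ± 0.088) and lost at the main start (-0.90 ± 0.11, adjusted p = 3.06e-15). SEPTIN9, a cytoskeletal GTPase, had 0.88 ± 0.12 and -0.76 ± 0.063, while its second alternative-start peak, 98.6 kb from the main start, was lost like the main start (-0.80 ± 0.11). FANCC, of the Fanconi anaemia DNA repair pathway, had 0.95 ± 0.19 and -0.80 ± 0.083. TESC, a calcium-binding protein, had -0.92 ± 0.14 and 0.78 ± 0.24, and ABR, a regulator of small GTPases, had -1.12 ± 0.26 and 1.09 ± 0.42, with a mean count of 22.2 at its main start.

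**Figure D4:**
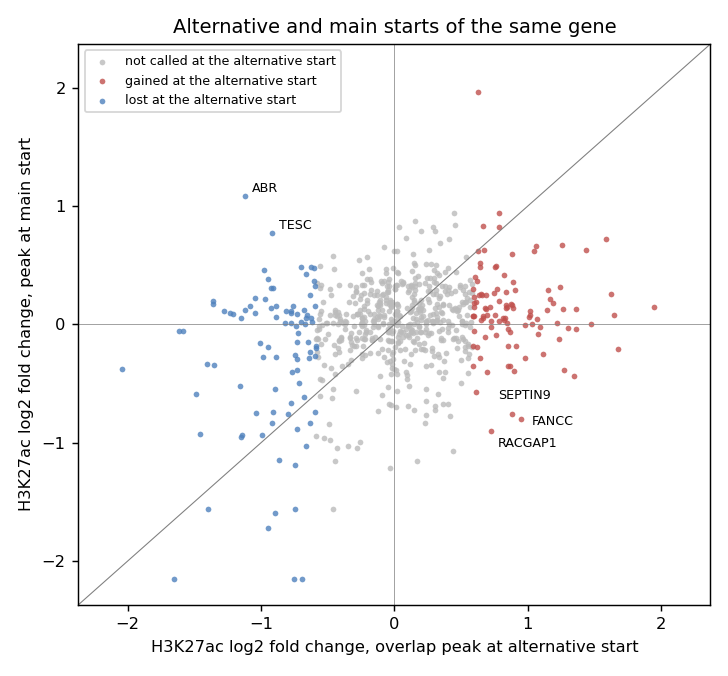
H3K27ac log2 fold change of the overlap peak at an alternative start (x axis) and of the peak at the main start of the same gene (y axis) for 709 pairs, coloured by the call at the alternative start, with the line of equality. Of the 105 gained peaks, 90 have a main start that was not called, and the 5 named genes have opposite calls.

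Several genes held more than 1 overlap peak: 94 genes had 209 between them. In 57 of these genes no peak was called. Both directions occurred in 5 genes, 2 or more gained peaks in 5 and 2 or more lost peaks in 7. All 3 peaks of GLI3, a transcription factor of the Hedgehog pathway, were lost, with log2 fold changes from -1.65 to -0.69 over 114 kb. NRP1, a co-receptor for semaphorins and VEGF, had 2 lost peaks of 3, from -1.40 to -0.46. SYNE1 held the gained peak above and a lost one at -0.79, and ANK2, an adaptor of the membrane skeleton, held peaks at 1.43 and -0.77 within 204 kb.

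Gene lists describe which pathways these peaks touched; a peak in a start window was counted for the gene, and 5.18% of all protein-coding genes had one. The counts of gained and lost peaks below stand beside 13.4% gained and 13.4% lost among all overlap peaks, and with so few peaks in a list nothing is read from them. Of 40 beta-cell transcription factors, 4 had an overlap peak (GATA4, GLIS3, ST18 and TSHZ1), none called, with log2 fold changes from -0.28 ± 0.17 at ST18 to 0.19 ± 0.13 at GLIS3. Of 38 genes of secretory granules, glucose sensing and excitability, 5 had one (CACNA1A, CACNA1C, CACNA1D, PCLO and TTR), with 1 gained (CACNA1D) and 1 lost (PCLO) peak among 6. PCLO, a scaffold protein of exocytosis, had 0.12 ± 0.063 in the peak over its main start (adjusted p = 0.11) and -0.68 ± 0.099 in a peak 212 kb into the gene (adjusted p = 1.60e-10). Among 44 genes of the Notch, Wnt and Hedgehog pathways, 3 had overlap peaks, of which 4 of 5 were lost: those of GLI3 and a peak inside TCF7L2, the Wnt effector gene associated with type 2 diabetes, at -2.05 ± 0.19 (chr10:113141717-113143960, 191 kb from its main start). The fifth, at WNT4, had -0.11 ± 0.092. PIK3R1, the regulatory subunit of PI3 kinase, had a gained peak at 0.85 ± 0.14 and one not called at -0.51 ± 0.19. Of 43 cell-cycle genes only E2F7, a transcriptional repressor of the cell cycle, had one, lost at -0.77 ± 0.097. Of 30 listed immediate-early and AP-1 genes only DUSP1 had one, at 0.10 ± 0.066. EGR4, with the gained peak above, was not in that list. None of the 19 markers of other pancreatic and stromal cells had one.

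The study also lists gene signatures for its expression scores. The share of their genes with an overlap peak was 16.7% for beta cell maturity (12 of 72), 6.50% for insulin secretion (13 of 200) and 5.56% for interferon-stimulated genes (19 of 342). It was 5.26% for the p53 pathway (10 of 190), 2.17% for cell cycle (2 of 92) and 1.54% for E2F targets (3 of 195). For SASP, the senescence-associated secretory phenotype, it was 1.32% (1 of 76). No gene of 17 in the MHC-I list had one. The insulin secretion peaks included 4 gained and 3 lost of 14, and ADRA2A was among the gained. Beta cell maturity had 1 gained and 1 lost of 15, with a median of -0.036, and its most strongly marked peak lay at RFX2, a transcription factor (-0.012 ± 0.074). The p53 pathway had 1 gained (MKNK2, 0.60 ± 0.078) and 4 lost of 11, FDXR and ADA among the lost. Interferon-stimulated genes had 2 gained and 4 lost of 21, among them MAP3K14 (gained) and ZNF385B (-0.73 ± 0.069, lost). EXO1, a DNA repair exonuclease of the cell-cycle list, had a lost peak at -1.59 ± 0.21, CKAP5, a microtubule polymerase of the same list, had 0.50 ± 0.17 without a call, and PGF, the placental growth factor of the SASP list, had 0.40 ± 0.073, below the fold threshold.

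CTCF, which binds a long DNA motif and bounds chromatin loops, was not used to choose the peaks. A CTCF peak overlapped 38.7% of the overlap peaks, against 49.4% of promoter peaks without a listed enhancer and 23.3% of listed enhancers away from promoters; the share was 33.8% at alternative starts, 54.1% at main starts with the enhancer in the window and 55.3% with it beside, where peaks are also widest. Of 506 CTCF peaks in overlap peaks, 3 were gained (0.593%, against 2.29% of all CTCF peaks) and 16 were lost (3.16%, against 3.28%) at the study's cutoffs for CTCF, adjusted p under 0.2 and fold above 1.5, applied here to all CTCF peaks in the table without the filter for a CTCF motif that the study used. The share lost was that of the background, and 125 of the 506 lacked an adjusted p and could not be called (11972 of 51457 over all). None of the 95 CTCF peaks in main-start peaks with the enhancer beside was called. Their median log2 fold change was -0.14 over all 506 and -0.012 over all CTCF peaks. GC content moved with this value: the CTCF peaks in overlap peaks had a median GC content of 55.6%, against 46.4% over all CTCF peaks. In the highest of 4 equal groups of CTCF peaks by GC content, the medians were -0.22 in overlap peaks and -0.23 over all. Of its 265 peaks in overlap peaks, 0 were gained and 11 (4.15%) lost, against 0.288% and 6.32% of all CTCF peaks in the group. In the lowest group the medians were 0.15 (45 peaks) and 0.19. The part of GC content in the result was not tested.

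**Figure D5:**
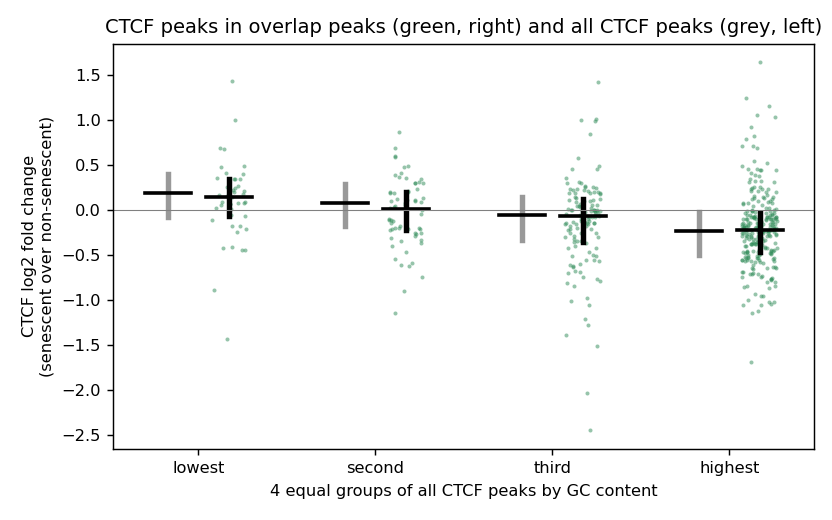
CTCF log2 fold change (y axis) of CTCF peaks in overlap peaks (green points, black median and interquartile range) beside all CTCF peaks (grey range, black median) in 4 equal groups of all CTCF peaks by GC content. Medians in overlap peaks go from 0.15 in the lowest group to -0.22 in the highest, beside 0.19 and -0.23 over all CTCF peaks.

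Among the changed CTCF peaks that ranked first by adjusted p-value were those in overlap peaks at ZBBX (1.43 ± 0.23, adjusted p = 4e-07), MACROH2A2 (1.00 ± 0.26), LRRN2 (-0.70 ± 0.19), OPRK1 (1.00 ± 0.28) and BAG6 (-0.84 ± 0.24). ZBBX is a zinc finger protein, MACROH2A2 a histone variant, LRRN2 a neuronal leucine-rich repeat protein, OPRK1 the kappa opioid receptor and BAG6 a chaperone. H3K27ac at these overlap peaks was not called, with log2 fold changes from -0.53 ± 0.17 at LRRN2 to 0.12 ± 0.13 at BAG6. A CTCF core of 12 letters with at most 1 mismatch was found, on either strand, in 32.4% of CTCF peaks in overlap peaks and in 47.2% of all CTCF peaks. Of the 19 changed CTCF peaks in overlap peaks, 6 had such a core. The best matches at ZBBX, MACROH2A2 and OPRK1 had 3, 2 and 1 mismatches and are not printed. The best matches at LRRN2 (0 mismatches) and BAG6 (1 mismatch), both on the minus strand, are printed with the core in capitals and 4 bases on either side.
LRRN2, chr1:204624162-204624181: gggcCCAGCAGGGGGCaggt
BAG6, chr6:31643966-31643985: ctatCCAGCAGGGCGCcggt

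Rb, the retinoblastoma protein that represses cell-cycle genes with E2F factors, was given as a list of regions called in senescent against non-senescent cells, without a fold change. Rb regions lay in 7 overlap peaks (0.636%), against 0.691% of all H3K27ac peaks, 1.97% of promoter peaks without a listed enhancer and 0.315% of listed enhancers away from promoters. They were at TRAK1, a mitochondrial transport adaptor, FAM174B, KMT5B, a histone H4 lysine methyltransferase, CLN6, PRRC2B, BCAS3 and CLASP2, a microtubule-end protein. None of these 7 peaks was called for H3K27ac, and their log2 fold changes ran from -0.24 ± 0.068 at FAM174B to 0.54 ± 0.13 at CLASP2.

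The width limit fell between peaks of nearly equal width, whose changes differed. Just inside were MAPK8IP1 (9975 bp, 0.46 ± 0.062), a scaffold of JNK signalling, and LSM4 (9909 bp, 0.13 ± 0.068), and just outside were UBN1 (10002 bp, 0.07 ± 0.064) and NKX6-3 (10032 bp, -1.05 ± 0.093), a homeodomain factor. The 206 peaks at or over the limit had a median of 0.14, with 17 gained and 7 lost.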

How the data were processed

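The authors' methods state that reads were trimmed (Trim Galore) and mapped with Bowtie2 on hg38, and that duplicates were removed for H3K27ac, H3K4me1 and Rb; for CTCF this is not stated. The authors called H3K27ac peaks with HOMER against input and CTCF and Rb peaks with MACS2, and compared the 3 senescent and 3 non-senescent libraries with DESeq2; versions are not given in the sources used here. The authors' deposited tables hold, for each H3K27ac and CTCF peak, the mean normalized count as a signal, a log2 fold change with its standard error, and p-values with their adjustment; size factors centre the typical peak on no change. These columns are the only measurements in the tables, so they were used as deposited and were not fitted again. The enhancer and Rb files hold positions alone. No library's depth is known.

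Peaks were assigned to GENCODE 44 starts of protein-coding transcripts and to listed enhancers by overlaps of at least 1 bp, in Python 3 with pandas and pysam, after the overlap and call functions were tested on simulated data. The main start is that of the Ensembl canonical transcript. A peak is called by the gene whose start lies nearest to its centre. The genes named are the 12 gained and 12 lost peaks with the smallest adjusted p-values, up to 4 peaks of each gene list by mean count, the peaks at the width limit, the 6 changed CTCF peaks that ranked first and peaks with an Rb region. Some items this rule names are not reported here. The rule, its peaks and the gene lists were chosen with earlier results of these data known, and the division by main and alternative start was made after values were seen. Alternatives varied the window, the starts, the enhancer share, the width limit, the thresholds and the overlap.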

Additional observations from a re-analysis of the deposited data

How the results depend on the processing

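Counts of overlap peaks depended most on which starts are accepted. With main starts alone, 256 peaks were left instead of 1101, with 24 gained and 23 lost. A fold above 2 left 40 gained and 49 lost peaks, no fold threshold gave 348 and 284, and a test against a fold of 1.5, from the deposited fold changes and standard errors, gave 41 and 43. At an adjusted p under 0.05, 5 CTCF peaks in overlap peaks were lost instead of 16. The other alternatives (a window of 1 kb, at least 20% of the peak listed, no width limit, an adjusted p under 0.01, a mean count of at least 50, CTCF p-values adjusted over all CTCF peaks, and centres inside the peak for CTCF and Rb) kept each count within 1.5 times and the median between 0.039 and 0.078. No paired analysis was possible because the tables hold no values per library, and for the same reason no library could be left out. Changes spread over part of a wide peak cannot be resolved in 1 value per peak.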

Other observations

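Sequence matches were counted in the whole overlap peaks on both strands, each position once. The AP-1 site (TGANTCA) occurred 3.59 times per 10 kb in gained, 3.11 times in lost and 2.91 times in uncalled overlap peaks, and 3.73 and 3.62 times in gained and lost listed enhancers away from promoters. The MAF half-site (TGCTGAC) had 1.79, 1.70 and 1.45 matches per 10 kb in gained, lost and uncalled overlap peaks, and 1.95 and 1.45 in gained and lost enhancers away from promoters. By share of peaks with a match the order differed, with the lost peaks lowest. In gained, lost and uncalled overlap peaks it was 66.7%, 53.7% and 64.6% for AP-1 and 47.6%, 37.4% and 43.6% for MAF. Peak width also enters this share, and no difference was tested. The GC box (GGGCGG) had 8.50 matches per 10 kb over all overlap peaks, between 2.62 in those enhancers and 19.8 in promoter peaks without a listed enhancer, and the ETS core (CCGGAAG) had 0.740, between 0.373 and 1.69. GC content was 48.7% in overlap peaks, 43.9% in the enhancers and 52.8% in the promoter peaks, and its part in these densities was not tested.

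In the 200 bases before a start, a GC box was found at 23.7% of 510 alternative starts inside an overlap peak, at 56.6% of the main starts of all genes and at 43.2% of all other protein-coding starts. The CCAAT box was found at 23.5%, 30.5% and 25.7%, and the homeodomain core (TAATTA) at 6.47%, 2.14% and 2.55%. Median GC content of these stretches was 52.0%, 64.5% and 61.0%. A match says only that the letters are there.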
